A study of Mus musculus with 8 samples.

Results

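The genes of cholesterol synthesis and sterol regulation were examined in mouse oocytes lacking BAF250a. The set holds 29 genes, picked by name for their known role, of the 54838 genes counted in the series. By role, 8 act in the mevalonate steps, 3 in the squalene and lanosterol steps, 8 after lanosterol, 5 in the control of the SREBP transcription factors, and 5 in uptake, transport, storage and efflux. Knockout oocytes (genotype BAF250aGKO) lacked Arid1a, the gene for BAF250a, a DNA-binding part of the SWI/SNF machinery that repositions nucleosomes. Deletion used Gdf9-cre, a recombinase expressed in oocytes. Control oocytes were wildtype, and all mice were C57BL/6. Oocytes were taken at MII (arrested in metaphase of the second meiotic division) or at GV (germinal vesicle, arrested in prophase). There were 2 libraries each of knockout MII, control MII, knockout GV and control GV, each from 5 to 10 oocytes. The labels give neither the age of the mice, nor hormone treatment, nor whether cumulus cells were removed, and they do not say that the libraries of a group came from separate animals. The p-values therefore measure the spread between these libraries, which may be technical.

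Cholesterol is built from acetyl-CoA. The mevalonate steps make isoprenoid diphosphates, squalene synthase commits them to sterols, and the steps after lanosterol trim the ring system to cholesterol. SREBP proteins are held in the endoplasmic reticulum by SCAP and the INSIG proteins when sterols are plentiful; when sterols are scarce, SCAP carries SREBP to the Golgi, where it is cut and released to switch on synthesis and uptake genes. Mouse oocytes are known to make little cholesterol themselves and to receive it from the surrounding cumulus cells, which they stimulate to make it. An intermediate made by Cyp51 and consumed by Tm7sf2 is one of the meiosis-activating sterols. Fully grown oocytes transcribe little, and many stored mRNAs are degraded or polyadenylated during maturation.

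SREBP target promoters typically combine a sterol regulatory element with NF-Y and Sp1 sites, so the promoters were searched for the letters of these motifs on both strands. RefSeq promoter sequences (build GRCm38.p6, 250 bases before to 50 bases after the start site) were matched for 24 of the 29 genes, in 32 windows, since 5 genes have more than 1 start site; those of Fdps, Fdft1, Sqle, Scarb1 and Npc1 were not used here. The sterol regulatory element core TCACNCCAC occurred in 1 of the 24 genes (4.17%), Hmgcs1, and in 1.44% of the 27025 genes of the table; a gene counts where any of its windows holds the letters. CCAAT, the NF-Y box, occurred in 21 genes (87.5%), against 41.1% of all genes of the table and 43.1% of the 10202 tested protein-coding genes in it. GGGCGG, the Sp1 box, occurred in 22 genes (91.7%), against 38.2% of all and 66.2% of tested protein-coding genes. Both boxes stood in 1 window in 18 genes (75%), against 14.5% of all and 26.3% of tested protein-coding genes. These matches describe letters in a window and not bound sites. The promoters given are those of Hmgcs1, the 1 gene with the element core, and of Mvd and Insig1, which both hold NF-Y and Sp1 letters but changed in opposite directions during maturation. The windows are chr13:119690101-119690400 on the plus strand for Hmgcs1, chr8:122443373-122443672 on the minus strand for Mvd and chr5:28071162-28071461 on the plus strand for Insig1. Each is written 5′ to 3′ along its gene, and capitals mark the motif letters on either strand; the element core of Hmgcs1, TCACCCCAC, begins at position -137 from the start site. No 2 matches in these windows share a base.
Hmgcs1: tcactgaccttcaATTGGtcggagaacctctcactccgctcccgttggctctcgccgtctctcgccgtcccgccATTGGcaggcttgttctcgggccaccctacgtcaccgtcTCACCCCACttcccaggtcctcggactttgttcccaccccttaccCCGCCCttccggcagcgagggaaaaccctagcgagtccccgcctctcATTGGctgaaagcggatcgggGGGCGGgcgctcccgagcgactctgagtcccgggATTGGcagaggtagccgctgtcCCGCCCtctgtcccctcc
Mvd: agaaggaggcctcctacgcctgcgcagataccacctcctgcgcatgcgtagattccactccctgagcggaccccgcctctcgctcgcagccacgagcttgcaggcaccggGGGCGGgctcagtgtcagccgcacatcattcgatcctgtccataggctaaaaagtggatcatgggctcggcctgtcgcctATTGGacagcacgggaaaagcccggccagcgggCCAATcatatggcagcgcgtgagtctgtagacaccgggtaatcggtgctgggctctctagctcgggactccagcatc
Insig1: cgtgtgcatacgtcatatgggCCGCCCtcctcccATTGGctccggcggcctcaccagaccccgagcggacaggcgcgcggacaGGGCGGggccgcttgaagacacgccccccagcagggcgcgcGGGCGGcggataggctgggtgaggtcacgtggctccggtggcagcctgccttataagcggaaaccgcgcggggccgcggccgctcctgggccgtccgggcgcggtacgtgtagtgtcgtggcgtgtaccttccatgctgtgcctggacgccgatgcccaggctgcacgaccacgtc

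The libraries held 19587421 to 33289150 reads in genes. Arid1a had 33 and 21.7 CPM (counts per 1000000 reads in tested genes, scaled by TMM) in knockout MII, against 1617 and 1293 CPM in control MII. It had 4.87 and 12.9 CPM in knockout GV, against 380 and 458 CPM in control GV. All 10 oocyte markers had reads in every library, Gdf9 and Zp3 among them. Of the 17 blood and immune markers, Ptprc had 0 reads in every library, while Laptm5 had 53 to 157 and Cd68 17 to 124 reads; the list summed to 6.55 and 9.51 CPM in knockout MII, 8.65 and 18.9 CPM in control MII, 9.29 and 7.89 CPM in knockout GV, and 6.03 and 7.79 CPM in control GV. The 23 granulosa and cumulus markers summed to 516 and 436 CPM in knockout MII, 475 and 537 CPM in control MII, 369 and 229 CPM in knockout GV, and 283 and 262 CPM in control GV. Of these 23, 10 and 12 were at 0 reads in the knockout MII libraries, against 7 and 4 in control MII. In knockout GV 6 and 6 were at 0, against 4 and 4 in control GV. CPM is a share of a library, so fewer cells of a type and less RNA per cell cannot be told apart in these values.

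Transcripts of the pathway were present at very uneven levels. At GV a single transcript, Fdft1 (squalene synthase, the first step committed to sterols), stood above all the others. Per kilobase of exon it averaged 667 CPM per kb in knockout GV and 566 CPM per kb in control GV, the 99.3 and 99.4 percentile of 12981 tested protein-coding genes. In CPM, Fdft1 made up 0.581% to 0.996% of the summed level of the 29 genes in the 4 MII libraries, and 54.4% to 63.6% in the 4 GV libraries. Next at GV, per kilobase, came Scap, the SREBP escort, with 117 CPM per kb in knockout GV and 103 CPM per kb in control GV. Hmgcs1, the cytosolic HMG-CoA synthase, followed with 106 CPM per kb in knockout GV and 58.6 CPM per kb in control GV. At MII, Scap stood at 96 CPM per kb in knockout and 119 CPM per kb in control oocytes, and Hmgcs1 at 94.9 CPM per kb in knockout and 58.3 CPM per kb in control oocytes. Insig1, the sterol-sensitive anchor of SCAP, stood at 64.9 CPM per kb in knockout MII and 83.3 CPM per kb in control MII. With 2 libraries a group, neighbours in this order whose libraries overlap, such as Scap and Hmgcs1 in knockout oocytes, were not separated by a test.

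Some transcripts of the pathway were scarce. A mean below 1 CPM was seen for 8 of the 29 genes in knockout MII, 2 in control MII, 4 in knockout GV and 4 in control GV. Enzymes of the main route were among the scarce ones. Fdps, which makes farnesyl diphosphate, had 0 to 4 reads in every library and was the 1 gene of the 29 not tested; 26.7% of its exon bases are shared with Gm43738 on the same strand, so reads there cannot be assigned to one gene. Idi1, the isopentenyl diphosphate isomerase, had 62 and 60 reads in knockout MII, 30 and 50 reads in control MII, 8 and 9 reads in knockout GV, and 3 and 2 reads in control GV. The median of tested protein-coding genes was 1.4 CPM per kb in knockout MII, 1.54 CPM per kb in control MII, 2.2 CPM per kb in knockout GV and 2.21 CPM per kb in control GV. Above that median stood 13, 12, 13 and 13 of the 29 genes in those 4 groups.

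**Figure D1:**
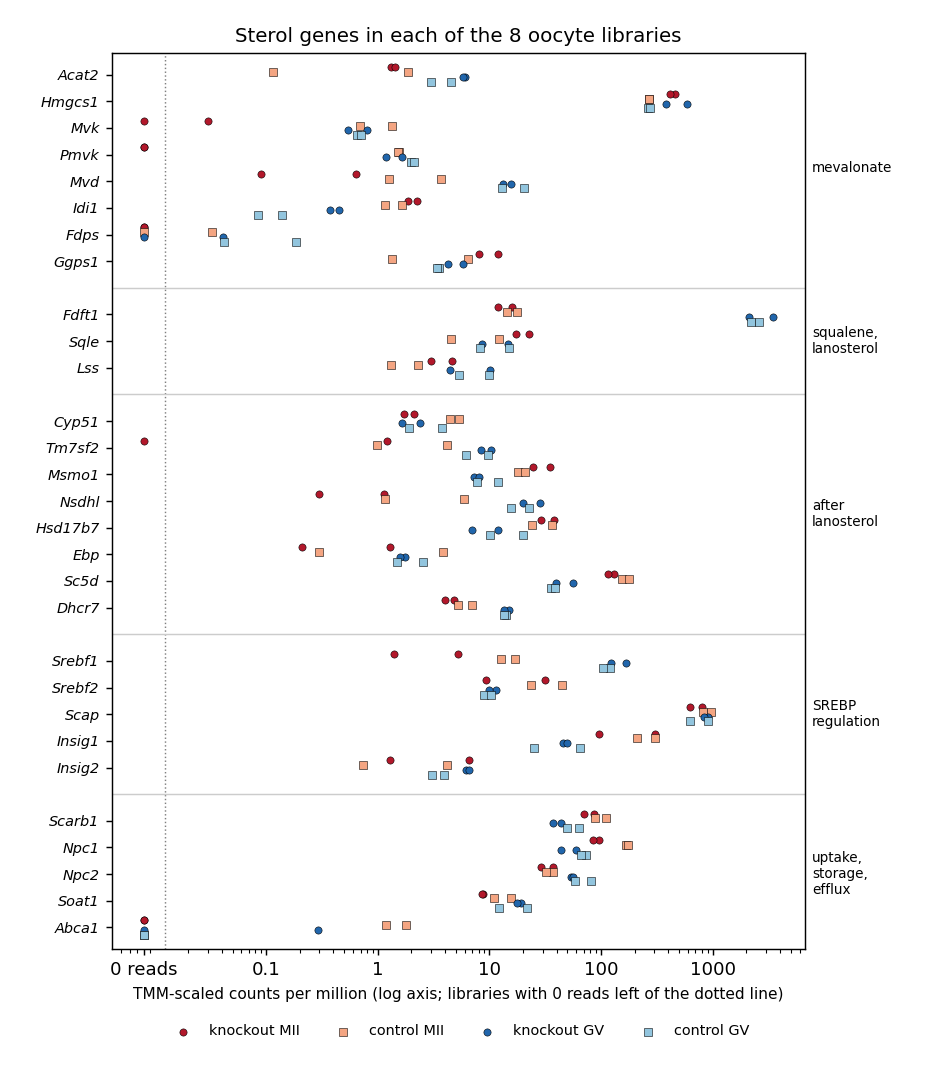
CPM on a log axis of each of the 29 genes (rows, by role) in each of the 8 libraries (points, coloured by group); points left of the dotted line have 0 reads. Fdft1 lies between 12.0 and 17.6 CPM in the MII libraries and between 2135 and 3507 CPM in the GV libraries, while Scap lies between 626 and 960 CPM and Hmgcs1 between 264 and 595 CPM throughout.

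Maturation was followed by setting MII against GV oocytes within each genotype. CPM is a share of a library, so a rise or fall here is relative to the other transcripts. Amounts per oocyte were not measured. RNA selection is not stated, so a changed amount and a changed polyadenylation cannot be told apart. In both genotypes the change was split within the pathway: Fdft1, Srebf1, Mvd and Nsdhl fell, and Sc5d, Insig1, Npc1 and Scarb1 rose. Synthesis enzymes, 18 of the 28 tested genes (64.3%), made up 7 of the 8 genes that fell and 3 of the 6 that rose in knockout oocytes. In control oocytes they made up 4 of the 6 that fell and 2 of the 7 that rose. Of the transport genes, the HDL receptor Scarb1 and the lysosomal exporter Npc1 rose in both.

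By edgeR's quasi-likelihood test with Benjamini-Hochberg adjustment over 15572 genes, 14 of the 28 tested genes passed an adjusted p of 0.05 in knockout oocytes, 6 higher and 8 lower. That is 50% of them, where 49% of all tested genes passed, 19.9% higher and 29.1% lower. In control oocytes 13 passed, 7 higher and 6 lower, or 46.4%, where 49.1% of all tested genes passed, 21.2% higher and 27.9% lower. The share that changed is near that of all genes in both genotypes. The median log2 change of the 28 genes was -0.71 in knockout oocytes, or -0.61 with groups at 0 reads set to their bound, where the median of all genes was -0.33. In control oocytes it was 0.02, where that of all genes was -0.20. Passing in both genotypes were 8 genes, 4 higher and 4 lower. Those with a call in knockout oocytes alone were Mvk, Pmvk, Tm7sf2, Msmo1, Hsd17b7 and Dhcr7, and those with a call in control oocytes alone were Idi1, Lss, Srebf2, Npc2 and Abca1; none of these differences between genotypes passed its own test, described further on. Beside these changes, mitochondrial genes took 3.029% to 6.931% of the reads at MII and 0.1052% to 0.4461% at GV. Of the 18 tested granulosa and cumulus markers, 1 rose and 3 fell in knockout oocytes and 4 rose and 3 fell in control oocytes; the part of either in the changes of the sterol genes was not tested. Of the calls, 7 of 14 in knockout oocytes and 5 of 13 in control oocytes held whichever 1 of the 8 libraries was left out. The count in knockout oocytes was 7 without knockout GV library 1. In control oocytes it was 7 without control GV library 1, 5 without control GV library 2 and 6 without control MII library b.

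Fdft1 showed the largest fall among sterol genes with reads at both stages. It had 12.0 and 15.9 CPM in knockout MII, against 3507 and 2135 CPM in knockout GV. In control oocytes it had 14.5 and 17.6 CPM at MII, against 2595 and 2186 CPM at GV. The 4 MII libraries lie within a narrow band and all far below the 4 GV libraries. The log2 change was -7.66 ± 0.44 (SE, adjusted p = 5.33e-06, edgeR) in knockout oocytes, 202-fold lower, and -7.21 ± 0.43 (adjusted p = 9.03e-06, edgeR) in control oocytes, 148-fold lower. Among genes with reads in both stages, Fdft1 had the 128th most negative change of 14088 in knockout oocytes and the 106th of 14465 in control oocytes. Fdft1 lies on chromosome 14, bases 63145150 to 63179578 of mm10, minus strand. It shares 18.3% of its exon bases with Ctsb, on the opposite strand, which had 45 and 0 reads in knockout MII, 320 and 208 in control MII, 481 and 1031 in knockout GV, and 1612 and 1759 in control GV. Without a stated strand setting, reads in the shared bases cannot be assigned to either gene.

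Of the mevalonate steps, Mvd fell in both genotypes. Mvd, the mevalonate diphosphate decarboxylase, had 0.0894 and 0.642 CPM in knockout MII, against 15.5 and 13.2 CPM in knockout GV, a log2 change of -5.31 ± 0.91 (adjusted p = 0.000925, edgeR). It had 3.69 and 1.26 CPM in control MII, against 12.9 and 20.2 CPM in control GV, a log2 change of -2.74 ± 0.79 (adjusted p = 0.0159, edgeR). All MII libraries lie below all GV libraries. The control call was lost without control GV library 2 (adjusted p = 0.0931) and without control MII library b (0.0613). The kinases of the step before, Mvk and Pmvk, fell in knockout oocytes and are described with the knockout comparison. Idi1 rose in control oocytes by 3.60 ± 1.14 on the log2 scale (adjusted p = 0.0243, edgeR), with 1.15 and 1.65 CPM at MII against 0.139 and 0.0838 CPM at GV. The GV values rest on 3 and 2 reads, and the call was lost without either control GV library (adjusted p 0.103 and 0.142) or without control MII library b (0.0512), with no filter on low counts (0.0587) and with the 4 compared libraries alone (0.0509). Hmgcs1 did not pass, with log2 changes of -0.16 ± 0.28 in knockout and -0.01 ± 0.28 in control oocytes.

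In the squalene, lanosterol and later steps, single enzymes moved in different directions. Nsdhl, which helps remove methyl groups from the ring, had 0.298 and 1.13 CPM in knockout MII, against 19.8 and 28.1 CPM in knockout GV. It had 5.92 and 1.16 CPM in control MII, against 22.7 and 15.7 CPM in control GV. It fell by 5.08 ± 0.89 on the log2 scale in knockout oocytes (adjusted p = 0.00102, edgeR) and by 2.44 ± 0.78 in control oocytes (0.0248). The control call was lost without control GV library 1 (0.116), control GV library 2 (0.0565) or control MII library b (0.074). Sc5d, the lathosterol oxidase, went the other way, with 131 and 115 CPM in knockout MII against 56.4 and 39.5 CPM in knockout GV, and 154 and 177 CPM in control MII against 35.6 and 38.5 CPM in control GV. It rose by 1.36 ± 0.28 in knockout oocytes (adjusted p = 0.00254, edgeR) and by 2.16 ± 0.28 in control oocytes (0.000203), and both calls held in all 8 leave-outs. Msmo1, the methylsterol monooxygenase that acts just before Nsdhl, rose in knockout oocytes by 1.96 ± 0.41 (0.00297) and measured 0.98 ± 0.40 in control oocytes (0.0648). Lss, the lanosterol synthase, fell in control oocytes by 2.08 ± 0.70 (0.0308), a call lost without control GV library 1 (0.0509), control GV library 2 (0.188) or control MII library b (0.0981).

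Hsd17b7, a ketosteroid reductase of the same demethylation, rose in knockout oocytes by 1.81 ± 0.46 (adjusted p = 0.00823, edgeR), a call lost without knockout GV library 1 (0.0753). Dhcr7, which reduces the ring in a last step of the pathway, fell in knockout oocytes by 1.70 ± 0.45 (0.0106), a call lost without the same library (0.0591). Tm7sf2, a sterol reductase, fell by 3.90 ± 1.30 (0.0302). It had 1.22 and 0 CPM in knockout MII against 8.38 and 10.3 CPM in knockout GV, and its call was lost without any 1 of the 4 GV libraries (0.0584 to 0.0988). It shares 12.1% of its exon bases with Vps51 on the same strand. Cyp51, which makes the substrate of Tm7sf2, and Ebp, a sterol isomerase, did not pass in either genotype.

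Among the regulators, the SREBP genes parted. Srebf1 fell: it had 5.21 and 1.40 CPM in knockout MII, against 122 and 169 CPM in knockout GV, and 12.7 and 16.9 CPM in control MII, against 120 and 105 CPM in control GV. The log2 change was -5.45 ± 0.57 (adjusted p = 4.99e-05, edgeR) in knockout and -2.92 ± 0.51 (0.000979) in control oocytes, and both calls held in all 8 leave-outs. Srebf2, which chiefly drives cholesterol genes, had 31.3 and 9.25 CPM in knockout MII against 11.4 and 9.91 CPM in knockout GV, and 23.5 and 44.8 CPM in control MII against 8.87 and 10.3 CPM in control GV. It rose in control oocytes by 1.84 ± 0.57 (0.0217), a call lost without control GV library 1 (0.118), control GV library 2 (0.0872) or control MII library b (0.148), and measured 0.93 ± 0.55 in knockout oocytes (0.186), whose second MII library lay below both GV libraries. Insig1 had 306 and 95.4 CPM in knockout MII against 45.9 and 49.8 CPM in knockout GV, and 211 and 304 CPM in control MII against 25.3 and 64.9 CPM in control GV. All MII libraries of Insig1 lie above all GV libraries. It rose by 2.07 ± 0.56 (0.0112) in knockout and by 2.51 ± 0.56 (0.00447) in control oocytes. The control call held in all 8 leave-outs, and the knockout call was lost without knockout MII library 1 (0.96 on the log2 scale, adjusted p = 0.139) or either knockout GV library (0.0783 and 0.0607). Scap and Insig2 did not pass in either genotype.

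**Figure D2:**
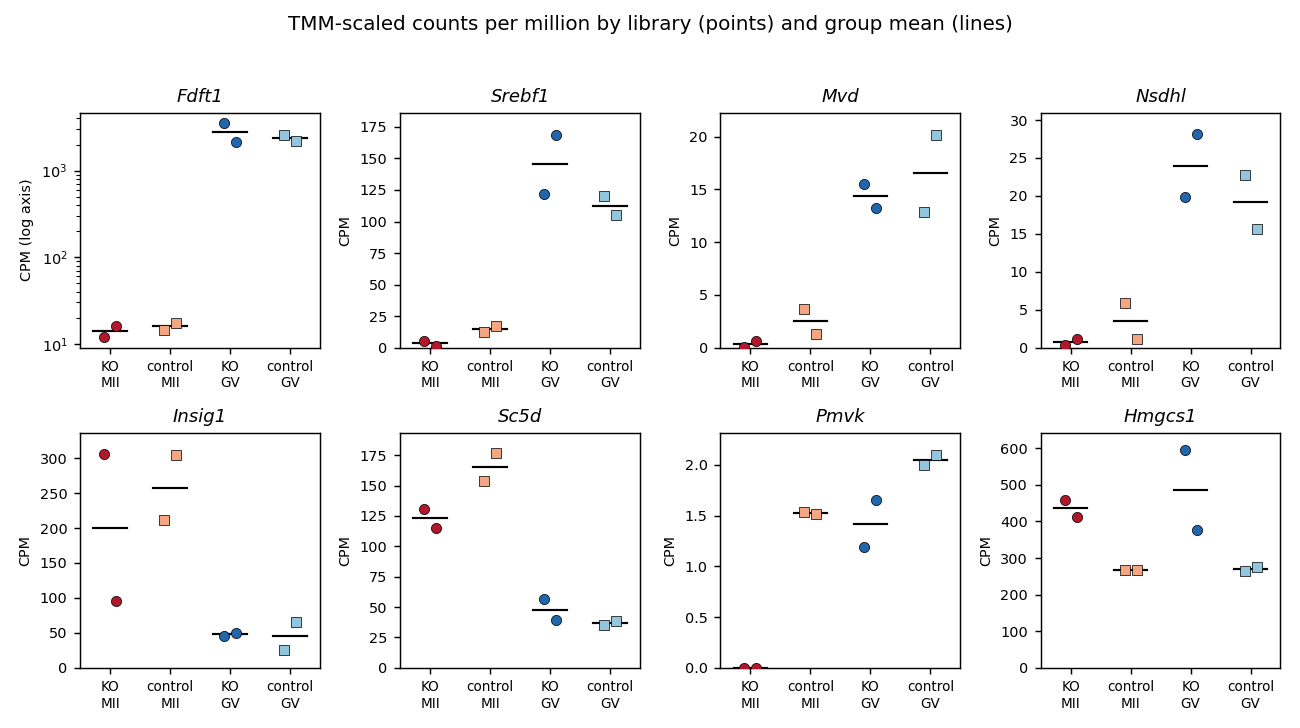
CPM of selected sterol genes in each library (points) by group, knockout MII, control MII, knockout GV and control GV, with a bar at the mean of the 2 libraries. Fdft1 and Srebf1 are low in all 4 MII libraries and Insig1 is high in them, while Pmvk is at 0 in both knockout MII libraries.

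Of the transport genes, Npc1, which moves cholesterol out of lysosomes, had 94.9 and 84.3 CPM in knockout MII against 43.6 and 59.2 CPM in knockout GV, and 168 and 175 CPM in control MII against 73.5 and 65.7 CPM in control GV. It rose by 0.80 ± 0.27 (adjusted p = 0.0295, edgeR) in knockout and by 1.30 ± 0.27 (0.00272) in control oocytes. The control call held in all leave-outs, and the knockout call was lost without knockout GV library 1 (0.172), knockout MII library 1 (0.12) or either control MII library (0.0513 and 0.0514). The knockout call was also lost with library totals (0.0698), with no filter on low counts (0.0829) and with the 4 compared libraries alone (0.0651). Its partner Npc2, the soluble lysosomal carrier, fell in control oocytes by 1.02 ± 0.30 (0.017), a call lost without control GV library 2 (0.112) or control MII library b (0.0711). Scarb1, the HDL receptor, whose loss in mice leaves females infertile, rose by 0.96 ± 0.28 (0.0181) in knockout and by 0.83 ± 0.28 (0.0333) in control oocytes. The control call of Scarb1 was lost when libraries were scaled by DESeq2 size factors (0.0724) or library totals (0.102), with no filter (0.0832), with DESeq2 (0.076), with the 4 compared libraries alone (0.0585), and without any of 5 single libraries, the highest value being 0.197 without control MII library a. The knockout call was lost without knockout GV library 1 (0.0521), knockout GV library 2 (0.102) or knockout MII library 1 (0.0901). Abca1, the cholesterol efflux pump, had 31 and 54 reads in control MII and 0 reads in control GV, at least 11.2-fold higher against a floor of 3 reads per library (adjusted p = 0.0259, edgeR). That call was lost without control GV library 1 (0.119), control GV library 2 (0.121) or control MII library b (0.0571). Soat1, which esterifies cholesterol for storage, did not pass in either genotype.

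**Figure D3:**
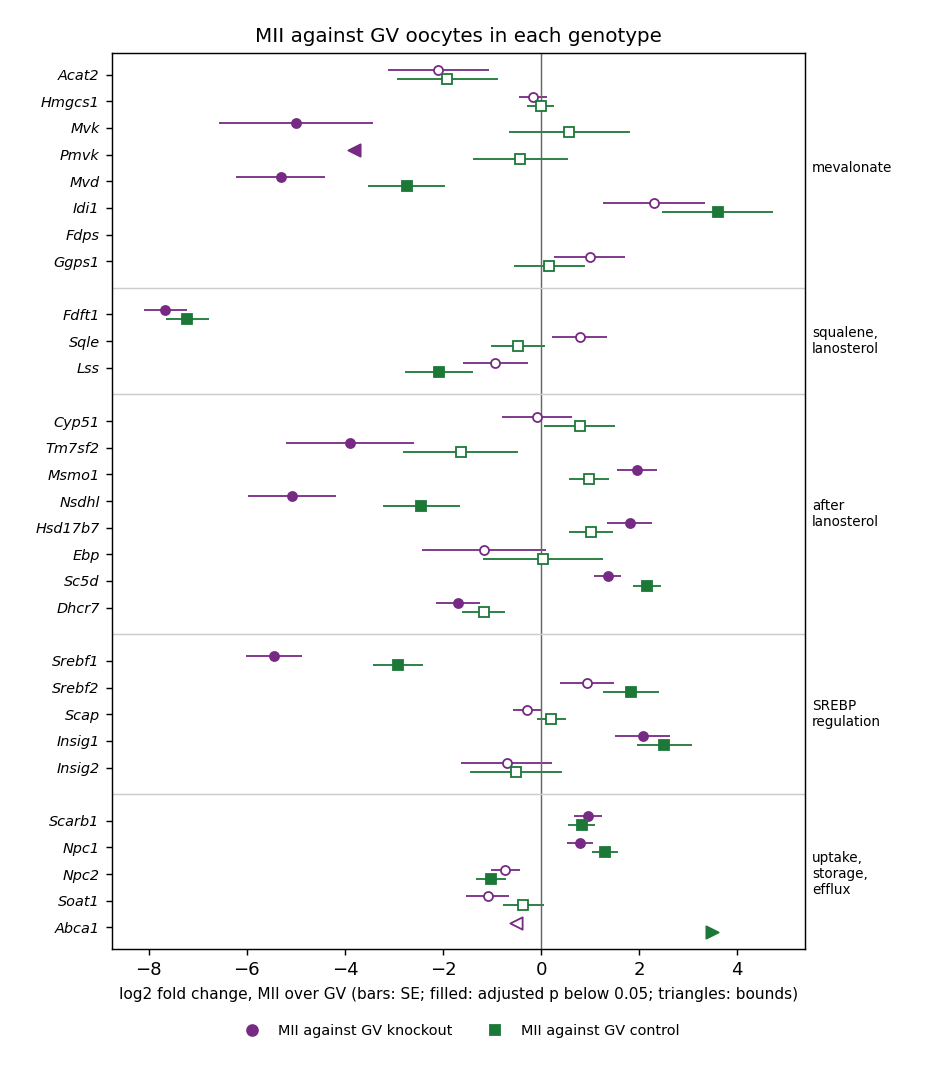
Log2 change of MII against GV with its SE for each tested gene, by role, in knockout and control oocytes; filled symbols passed the test and triangles are bounds where a group has 0 reads. Fdft1 lies at -7.66 in knockout and -7.21 in control oocytes, and genes after lanosterol passed on both sides of 0 in both genotypes.

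Knockout and control oocytes were compared first at MII. In knockout MII oocytes 2 of the 28 tested genes passed, both lower. They were Pmvk, the phosphomevalonate kinase, which had 0 reads, and Srebf1, lower by 2.15 ± 0.50 on the log2 scale. The share called, 7.14%, is near the 5.14% of all tested genes. No gene of the set passed as higher, although 9 had positive differences. Negative differences were measured for 19 of the 28 tested genes, where 50.4% of all tested genes were negative. Most of the 19 did not pass the test. The mevalonate genes divided between Acat2, Hmgcs1, Idi1 and Ggps1, with positive differences, and Mvk, Pmvk and Mvd, with negative ones.

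Of the 28 tested genes, 2 passed (edgeR, adjusted p below 0.05), which is 7.14% where 5.14% of all tested genes passed, 1.7% higher and 3.44% lower. At an unadjusted p below 0.05 there were 9. The share of all genes at that mark was not counted, here or below, so such counts cannot show an excess. The median log2 difference was -0.39, where that of all genes was -0.01. Both knockout libraries lay below both control libraries for 13 genes (46.4%), where 24.7% of all tested genes did so. Both lay above for 6 (21.4%), where 21.7% of all tested genes did so. All 5 genes of uptake, transport, storage and efflux had negative differences, with a median of -0.63.

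Pmvk had 0 reads in both knockout MII libraries, against 40 and 46 reads, or 1.54 and 1.52 CPM, in control MII. At GV it had 1.19 and 1.65 CPM in knockout and 2.00 and 2.10 CPM in control oocytes. Against a floor of 3 reads per library it was at least 15.1-fold lower in knockout MII (adjusted p = 0.0194, edgeR). Leaving out any 1 of the 4 GV libraries, which enter the shared spread, ended the call (0.0544 to 0.0601), as did fitting the 4 compared libraries alone (0.085). In knockout oocytes Pmvk also fell between GV and MII, at least 14-fold (adjusted p = 0.00214), a call that held in all 8 leave-outs.

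Mvk, the kinase one step before Pmvk, was also nearly absent from knockout MII libraries. It had 1 and 0 reads in knockout MII, against 35 and 21 reads in control MII, and 14 and 13 reads in knockout GV, against 14 and 17 reads in control GV. The difference at MII, -5.61 ± 1.59 on the log2 scale, did not pass (adjusted p = 0.0743, edgeR). Mvk fell between GV and MII in knockout oocytes by 5.00 ± 1.57 (0.0235), a call lost without knockout GV library 1 (0.0779), knockout GV library 2 (0.0534) or knockout MII library 2 (0.0758), and with the 4 compared libraries alone (0.0543). Mvd, which follows Pmvk, measured -2.78 ± 0.85 at MII (0.0911). These 3 consecutive steps each had both knockout MII libraries below both control MII libraries.

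Srebf1 had 5.21 and 1.40 CPM in knockout MII, against 12.7 and 16.9 CPM in control MII, and the groups did not overlap. The log2 difference was -2.15 ± 0.50 (adjusted p = 0.0378, edgeR). The call held in 1 of the 8 leave-outs, that without knockout MII library 1 (0.008). It was lost without knockout MII library 2 (-1.44 on the log2 scale, adjusted p = 0.088), control MII library a (0.0685), control MII library b (0.122) and each GV library (0.0727 to 0.0887), and with the 4 compared libraries alone (0.0665). The direction stayed negative in all of them. Srebf2 and Insig1 spread widely between the knockout MII libraries, with 31.3 and 9.25 CPM for Srebf2 and 306 and 95.4 CPM for Insig1, and knockout and control libraries overlapped for both.

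Abca1 had 0 reads in both knockout MII libraries, against 31 and 54 reads in control MII, at least 14.7-fold lower against the floor, without passing (adjusted p = 0.0955, edgeR). Npc1 measured -0.94 ± 0.27 (0.074) with no overlap between groups. Abca1 is the 1 gene of the set on chromosome 4, which also carries Arid1a. On the higher side, Ggps1, which makes geranylgeranyl diphosphate, measured 1.35 ± 0.73 (0.31), with 8.04 and 11.9 CPM in knockout MII against 1.35 and 6.44 CPM in control MII. Sqle, the squalene epoxidase, measured 1.26 ± 0.56 (0.224), with 22.8 and 17.4 CPM in knockout MII against 4.54 and 12.3 CPM in control MII. Lss measured 1.07 ± 0.68 (0.397), with 3.01 and 4.64 CPM against 2.31 and 1.32 CPM in control MII. None of these 3 passed, although their libraries did not overlap. Hmgcs1 had 460 and 412 CPM in knockout MII against 268 and 267 CPM in control MII, 0.70 ± 0.28 on the log2 scale (0.178).

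Markers of cells around the oocyte were compared at MII as well. Among the granulosa and cumulus markers, 1 of the 18 tested passed by edgeR (5.56%), where 5.14% of all tested genes did. Of the 18 tested granulosa and cumulus markers, 13 had negative differences at MII, where 50.4% of all tested genes were negative. Their median was -1.97, or -1.44 with groups at 0 reads at their bound. Of the markers 1 passed lower, Hsd17b1 (-6.19 ± 1.36, adjusted p = 0.0305, edgeR, a call that held in 2 of 8 leave-outs). Foxl2 had 0 reads in both knockout MII libraries, against 28 and 10 reads in control MII, and Inha had 2.74 and 0 CPM in knockout MII against 23.4 and 8.42 CPM in control MII. Both knockout MII libraries lay below both control MII libraries for 9 of the 18 markers, where 24.7% of all tested genes did so. They lay above for 3, where 21.7% of all tested genes did so. Those 3 were Kitl (7.54 and 2.91 CPM against 0.462 and 1.75 CPM in control MII), Nr5a2 (39.3 and 44.8 CPM against 21.7 and 31.1 CPM) and Has2 (1.64 and 0.642 CPM against 0 and 0.562 CPM). Of the 4 tested blood and immune markers, 2 had positive and 1 a negative difference at MII. The negative one, Cd52, passed lower (edgeR, adjusted p below 0.05), where 3.44% of all tested genes did. Cd52 had 0 reads in both knockout MII libraries and 108 and 304 reads in control MII. Laptm5 had 2.77 and 5.44 CPM in knockout MII against 2.04 and 2.51 CPM in control MII, and Cd68 had 3.69 and 3.74 CPM against 1.92 and 3.83 CPM in control MII. The summed levels of the granulosa and cumulus list overlapped between the groups, as given above. Most of each sum was Serpine2, with 386 and 323 CPM in knockout MII and 298 and 358 CPM in control MII. The sums therefore do not show how the other markers of the list stood. Their part in the low values of Pmvk, Mvk, Srebf1 and Abca1 was not tested. The share of reads in mitochondrial genes was 3.029% and 4.408% in knockout MII, against 6.03% and 6.931% in control MII.

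**Figure D4:**
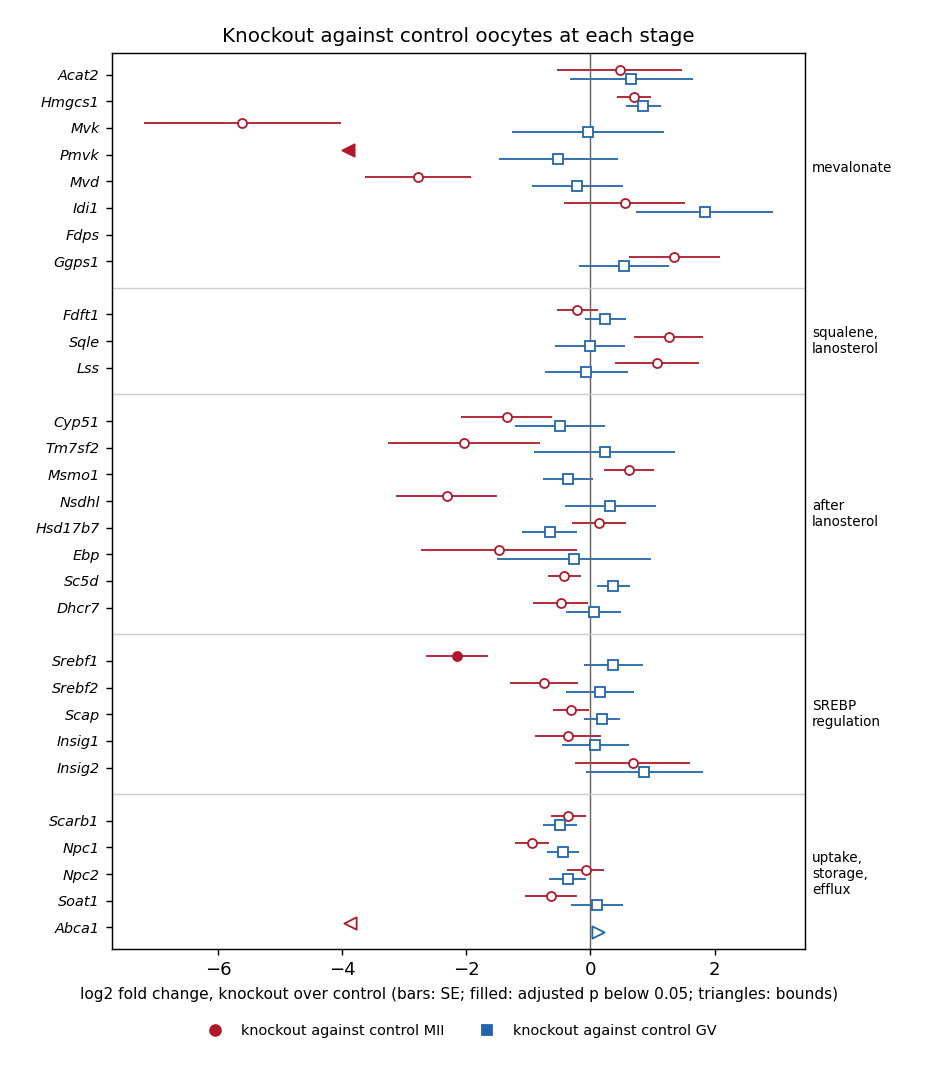
Log2 difference of knockout against control with its SE for each tested gene, by role, at MII and at GV; filled symbols passed the test and triangles are bounds where a group has 0 reads. At MII Pmvk and Srebf1 passed, on the negative side, and at GV 0 genes passed.

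In GV oocytes the sterol transcripts of knockout and control libraries were not separated by the test. By edgeR's quasi-likelihood test 0 of the 28 genes passed, where 0.989% of all tested genes did, 0.597% higher and 0.392% lower. Hmgcs1 was the 1 gene at an unadjusted p below 0.05, and DESeq2 also called 0. The median log2 difference was 0.09, where that of all genes was -0.00. Both knockout libraries lay above both control libraries for 7 genes (25%), where 22.6% of all genes did so, and below for 4 (14.3%), where 23.8% did so. Scaling by library totals moved the median of all genes by -0.27 in this comparison.

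Hmgcs1 had 595 and 378 CPM in knockout GV, against 264 and 275 CPM in control GV, 0.85 ± 0.28 on the log2 scale (adjusted p = 0.25, edgeR). Its libraries did not overlap at GV, nor at MII. Fdft1 measured 0.24 ± 0.33 at GV and -0.21 ± 0.33 at MII, so an interval of 2 SE covers a difference of less than 1 on the log2 scale either way. Srebf1 measured 0.37 ± 0.47 at GV, with 122 and 169 CPM in knockout and 120 and 105 CPM in control oocytes.

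The largest positive differences at GV were those of Abca1, Idi1 and Insig2, followed by that of Hmgcs1. Abca1 and Idi1 had a mean below 1 CPM in both GV groups. Abca1 had 0 and 7 reads in knockout GV and 0 reads in control GV. Idi1 measured 1.84 ± 1.11 (adjusted p = 0.652, edgeR) on 8 and 9 reads in knockout GV against 3 and 2 in control GV. Insig2, the second INSIG gene, measured 0.87 ± 0.94 (0.884), with 6.12 and 6.61 CPM in knockout GV against 3.90 and 3.06 CPM in control GV. On the negative side were Hsd17b7 at -0.66 ± 0.45 (0.711), with 6.97 and 11.9 CPM against 10.1 and 19.8 CPM in control GV, Pmvk at -0.52 ± 0.96 (0.962), and Cyp51 at -0.49 ± 0.72 (0.937), with 1.64 and 2.40 CPM against 1.90 and 3.77 CPM in control GV. Libraries overlapped for Hsd17b7, Cyp51 and Abca1. Cyp51 turned to 0.09 without control GV library 2.

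Whether the knockout effect differed between the stages was tested as an interaction, the difference at MII minus that at GV, which equals maturation in knockout minus maturation in control oocytes. Of the 28 genes, 0 passed by edgeR, where 0.0835% of all tested genes did, 0.00642% higher and 0.0771% lower. At an unadjusted p below 0.05 there were 6, without a share of all genes to set beside them. DESeq2 called 2, Pmvk and Srebf1. Pmvk had the lowest adjusted p of the set by edgeR (0.165), and Abca1 had 0.22; no size is given for either, since each has a group at 0 reads. Mvk measured -5.57 ± 1.97 (0.32). Srebf1 measured -2.52 ± 0.68 (adjusted p = 0.214, edgeR), and Mvd -2.57 ± 1.11 (0.42). Nsdhl measured -2.64 ± 1.09 (0.392). The median was -0.51, where that of all genes was -0.14. Negative values were measured for 21 of the 28 genes, where 55.3% of all tested genes were negative. For Fdft1 the interaction was -0.44 ± 0.46 (0.785).

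The remaining genes of the wider pathway, in 4 lists of 56 genes of which 53 were tested, were counted in the same way. Between GV and MII, in knockout oocytes 15 rose and 11 fell (49.1%), and in control oocytes 15 rose and 10 fell (47.2%), near the shares of all genes. Of the 10 genes that process SREBP or degrade sterol-regulated proteins, 6 rose and 2 fell in both genotypes, where 19.9% of all tested genes rose and 29.1% fell in knockout oocytes and 21.2% rose and 27.9% fell in control oocytes. Among those that rose were Mbtps1 and Mbtps2, the Golgi proteases that cut SREBP. Mbtps1 averaged 73.6 ± 48.4 CPM in knockout MII and 32.2 ± 0.401 CPM in knockout GV (SD, n = 2 each), and its knockout call held in 1 of the 8 leave-outs, with a highest value of 0.582 without knockout MII library 1. Its control call was lost without control GV library 1 (adjusted p = 0.0821, edgeR) or control MII library b (0.0526). For Mbtps2 the knockout call was lost without knockout GV library 1 (0.0579), and the control call without control GV library 1 (0.172) or control MII library b (0.134). Erlin1, a sensor that helps hold SREBP back, rose by 1.64 ± 0.30 (0.00141) in knockout and 1.83 ± 0.30 (0.000784) in control oocytes, in all leave-outs. Tmem97, a regulator of Npc1, also fell, with 5.39 and 8.38 CPM in knockout MII against 804 and 445 CPM in knockout GV, and 11 and 10 CPM in control MII against 507 and 296 CPM in control GV. Its log2 changes were -6.50 ± 0.47 (7.7e-06) in knockout and -5.26 ± 0.45 (2.32e-05) in control oocytes.

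In the branches that leave the pathway before squalene, both subunits of the enzyme that makes dolichol precursors parted in both genotypes. Nus1 rose by 2.82 ± 0.35 (adjusted p = 0.000134, edgeR) in knockout and by 2.42 ± 0.34 (0.000312) in control oocytes. Dhdds, its catalytic partner, fell by 5.94 ± 0.81 (0.000235) in knockout and by 5.32 ± 0.78 (0.000359) in control oocytes. All 4 calls held in every leave-out. Acacb, a fatty acid gene of the SREBP target list, fell by 3.14 ± 0.34 (6.14e-05) in knockout and by 3.71 ± 0.35 (3.68e-05) in control oocytes.

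In the knockout comparison the same 53 genes gave 0 calls at GV by edgeR, where 0.989% of all tested genes passed. At an unadjusted p below 0.05 there were 5, without a share of all genes to set beside them. At MII they gave 1 higher and 2 lower (5.66%), where 5.14% of all tested genes passed, 1.7% higher and 3.44% lower. The share called at MII is near that of all genes. Stard4, a soluble sterol carrier, was the higher one, with 65.6 and 52.7 CPM in knockout MII against 11.4 and 16.5 CPM in control MII, 2.08 ± 0.42 on the log2 scale (adjusted p = 0.0226, edgeR); the call was lost without knockout MII library 1 (0.0563) or control MII library a (0.0896). Scd1, a fatty acid desaturase, was lower, with 0.149 and 0 CPM in knockout MII against 6.85 and 19 CPM in control MII (adjusted p = 0.0402), and its call was lost without control MII library b (0.119) or any 1 of the 4 knockout libraries (0.0555 to 0.114). Gramd1a, which carries cholesterol from the plasma membrane to the endoplasmic reticulum, had 0 reads in both knockout MII libraries against 95 and 111 reads in control MII, at least 36.2-fold lower (0.0324), and its call held in 0 of 8 leave-outs (0.0544 to 0.0762). The interaction gave 0 calls among these 53 genes by edgeR, where 0.0835% of all tested genes passed. At an unadjusted p below 0.05 it gave 3, again without a share of all genes.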

How the data were processed

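Total RNA from 8 oocyte libraries in 4 groups of 2 was sequenced. The authors deposited counts per Ensembl gene, 54838 gene entries and 5 summary entries that name no gene; these summary entries held 22% to 35.13% of reads and were left out. The submitters' processing notes name Bowtie2, the build mm10, HTSeq and edgeR. Versions, annotation, strand setting and RNA selection are not stated there or in the labels. Per the file headers, 2 columns carry the name of the second library of control MII; they were used as control MII a and b, with no replicate number. There were 0 unused value columns. Replicate columns differed far beyond sampling noise (chi-square per degree of freedom 50.5 to 111).

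The model was run with edgeR 4.0.16 under R 4.3.3, with filterByExpr (15572 genes kept), TMM scaling, 1 term per group over the 8 libraries (4 residual and 6.3 prior degrees of freedom, biological coefficient of variation 0.507) and a two-sided quasi-likelihood F-test for 5 contrasts. P-values were adjusted by Benjamini-Hochberg over all tested genes, and a gene was called at an adjusted p below 0.05. The SE is the size of the log2 change divided by the square root of F. A fold against a group at 0 reads is a bound against 3 reads per library, 0.0894 to 0.17 CPM, which covers counting error only. Levels of different genes were compared per kilobase of merged GENCODE M21 exons. On simulated data for knockout against control at MII (14836 genes), the test recovered 5.06% of the genes changed by 1 on the log2 scale, 44.8% of those changed by 2 and 84.1% of those changed by 4. The changed genes had a mean of at least 1 CPM. All libraries shared 1 baseline, and the spread was the trend over genes. The shares therefore do not cover scarcer genes such as Mvk and Abca1.

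The genes, lists and tests were chosen with earlier results of these data known. Named with values were every gene called in a knockout contrast, the 3 largest differences in each direction in each knockout contrast, and the 4 largest called changes in each direction in control maturation; others were added after their values were seen. Alternatives were other scalings, other filters, DESeq2 1.42.0, the 4 compared libraries alone, a replicate block and leaving out each library in turn. Acat2 has a close copy, Acat3, so its values are uncertain.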

Additional observations from a re-analysis of the deposited data

How the results depend on the processing

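For knockout against control at MII, the 2 calls became 5 with no filter on low counts, 1 at a mean of at least 5 CPM, 6 with DESeq2 (Mvd, Mvk, Npc1, Nsdhl, Pmvk and Srebf1, all lower), 1 with only the 4 compared libraries (Npc1), and 0 to 3 when single libraries were left out. At the filter of 5 CPM Pmvk, at most 2.05 CPM by group mean, was left out, and Srebf1 kept its call (adjusted p = 0.0323, edgeR). The cause of the other shifts was not tested. No call among the 28 genes appeared at GV under any setting. Leaving out single libraries gave 7 to 15 calls for maturation in knockout oocytes and 5 to 14 in control oocytes. The interaction gave 3 calls with no filter, 2 with DESeq2 and 0 to 1 in the leave-outs. Over all genes, calls at GV were 154 as reported, 527 with no filter, 526 with DESeq2, 768 with the 4 compared libraries and 26 to 177 in the leave-outs. At MII they were 800, against 1829 with no filter, 1773 with DESeq2 and 365 to 763 in the leave-outs. For the interaction they were 13, against 498 with no filter, 355 with DESeq2, 41 at a mean of at least 5 CPM, 1 with DESeq2 size factors in edgeR, 2 with library totals and 0 to 20 in the leave-outs. For named genes, 296 alternative values in 21 comparisons gave 267 on the same side of the threshold, 26 that lost a call, 2 that gained one and 1 that changed sign, Cyp51 at GV, whose value in the leave-outs lay between -0.90 and 0.09, the highest being without control GV library 2. Scaling by library totals moved the median of all genes by -0.27 at GV, -0.15 for maturation in control oocytes and 0.21 for the interaction.

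With the replicate number as a block, over the 6 libraries that carry one, there were 0 calls at GV and 14 for maturation in knockout oocytes (5 higher, 9 lower), against 15 in the same 6 libraries without the replicate block, a fit added after seeing the data. The Npc1 maturation call in knockout oocytes was lost in these 6 libraries both with the block (adjusted p = 0.0578, edgeR) and without it (0.0534). Same-numbered libraries correlated at 0.119 (knockout GV with control GV), -0.02 (knockout GV with knockout MII) and 0.0127 (control GV with knockout MII) in their deviations over genes. Control MII could not enter, since its columns carry no replicate number. These values cannot show whether same-numbered libraries shared an animal or a preparation. At 2 libraries a group and few reads for Pmvk, Mvk, Idi1 and Abca1, smaller differences were not detectable at this depth.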

Other observations

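Oxysterol genes outside the 29 changed in both directions between GV and MII. Cyp27a1, which makes an oxysterol, had 0 reads in both knockout MII libraries and fell at least 91.1-fold between GV and MII in knockout oocytes (adjusted p = 0.000649, edgeR). In control oocytes it fell by 6.35 ± 1.16 on the log2 scale (0.00178). Osbpl9, an oxysterol-binding protein, fell by 1.95 ± 0.31 (0.000592) in knockout and 1.79 ± 0.31 (0.00101) in control oocytes. Its relative Osbpl8 rose by 1.67 ± 0.32 (0.00173) in knockout and 1.85 ± 0.32 (0.00098) in control oocytes. All of these calls held whichever library was left out.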
